A study of Rattus norvegicus with 6 samples.

Results

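The 9 genes described here encode proteins that coat lipid droplets, join them or help them form: the perilipins Plin2, Plin3, Plin4 and Plin5, the CIDE genes Cidea, Cideb and Cidec, the FIT gene Fitm2, and G0s2. They were taken as the rows of the deposited gene table that carry these symbols, 9 of 32930 listed genes. Of these, 8 were among the 18455 genes that passed the filter on low counts, and Cidea did not pass. Liver RNA was sequenced from 3 animals of each group. The HFD group was fed a high-fat diet with the vehicle CMC-Na, and the HTG group the same diet with HTG. The labels give 12 weeks of intervention. In the paper's rat experiment the diet lasted 12 weeks, and the drugs were gavaged for 8 of them. HTG stands for Huazhuo Tiaozhi granule, a herbal formula, and the treatment field of its libraries spells it HCG. The labels describe all livers as nonalcoholic fatty liver and name rats, the paper's sequencing paragraph names C57BL/6 J mice, and the gene rows are mouse Ensembl genes, so the species cannot be told from the sources used here. No chow-fed group was analysed here, so values can be compared between the treated and untreated fatty livers but not with normal liver. Neither dose nor age is given in the labels of these libraries.

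A lipid droplet is a core of triglyceride and sterol ester under a single phospholipid layer. It buds from the endoplasmic reticulum, where FIT proteins bind newly made triglyceride and help it leave the membrane. Perilipins then cover the surface and limit the access of lipases, CIDE proteins bring droplets together so that lipid passes from one to another, and G0s2 inhibits ATGL, the lipase encoded by Pnpla2 that starts triglyceride breakdown. In fatty liver, Plin2 is the best known coat protein of hepatocyte droplets, and several coat genes are targets of the fatty acid receptors PPARα and PPARγ.

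The estimated counts summed to between 50648778 and 90563477 per library, or about 12662194 to 22640869 sequenced fragments, since low values came in steps of 4 counts. For a gene with no fragments seen, the expected level could still be up to 3 fragments. That limit was taken as 12 counts, or 0.123 to 0.256 CPM (counts per scaled library size). It covers counting error only. HFD library 2 stood apart for most of the 9 genes, so the fitted changes of the members and the counts of lists are given with and without it. All 8 hepatocyte markers looked up had counts in every library, with a summed FPKM (fragments scaled by gene length and library size) of 33250 to 44750. The adipocyte marker Adipoq was at 0 in every library, 2 of the 6 adipocyte markers in the table had counts in every library, and their summed FPKM ran from 6.05, in HFD library 2, to 12.7. Of 6 skeletal muscle markers, Ckm, Myh4 and Tnnt3 were at 0 everywhere and the sum ran from 0.59 to 1.37 FPKM. All 8 macrophage markers had counts in every library and summed to 543, 253 and 519 FPKM in HFD libraries 1, 2 and 3, against 338, 339 and 175 FPKM in HTG libraries 1, 2 and 3, lowest in HTG library 3 and HFD library 2. All 8 stellate cell markers had counts in every library, with sums of 49.1 to 77.2 FPKM. The part of these differences in the results was not tested.

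Plin2, Plin4, Plin5, Cidec, Fitm2 and G0s2 were each at least 2 times as high in HFD library 2 as in any other library. This was seen in 6 of the 8 members tested, against 152 of the 18455 genes tested, or 0.824%. Plin3 and Cideb did not share the pattern, at 0.797 and 0.849 times the highest other library. Plin3 was the only member whose groups did not overlap, with every HTG library below every HFD library. Such separation was seen in 1 of the 8 members, and in 15.5% of all genes tested. In the higher direction it was seen in 0 members, against 16.5% of those genes. By edgeR's quasi-likelihood test, 3 of the 8 members (Plin2, Plin3 and Fitm2) were lower in the HTG group at an unadjusted p under 0.05, against 12.4% of all genes tested, and 0 were higher, against 12.3%. At an adjusted p under 0.05 (Benjamini-Hochberg over all genes tested), edgeR called 0 members and 2 of all genes tested, 0.0108%. DESeq2 called Plin3 and Fitm2 at that threshold, and 13.0% of all genes tested. The fitted value of all 8 members was lower in HTG livers, as was that of 8933 of the 18455 genes tested. The median of the members' log2 fold changes was -1.36, against 0.03 over all genes tested. Plin4, Cidec and G0s2 turned higher in the fit that left out HFD library 2 (log2 fold changes 1.26, 0.22 and 0.17). Without HFD library 2 the median of the 8 members was -0.15, and 1 member, Plin3, was lower at an unadjusted p under 0.05 and 0 were higher, against 9.72% and 10.6% of all genes in that fit. In whole liver tissue, fewer cells of a type and less RNA per cell cannot be told apart.

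**Figure D1:**
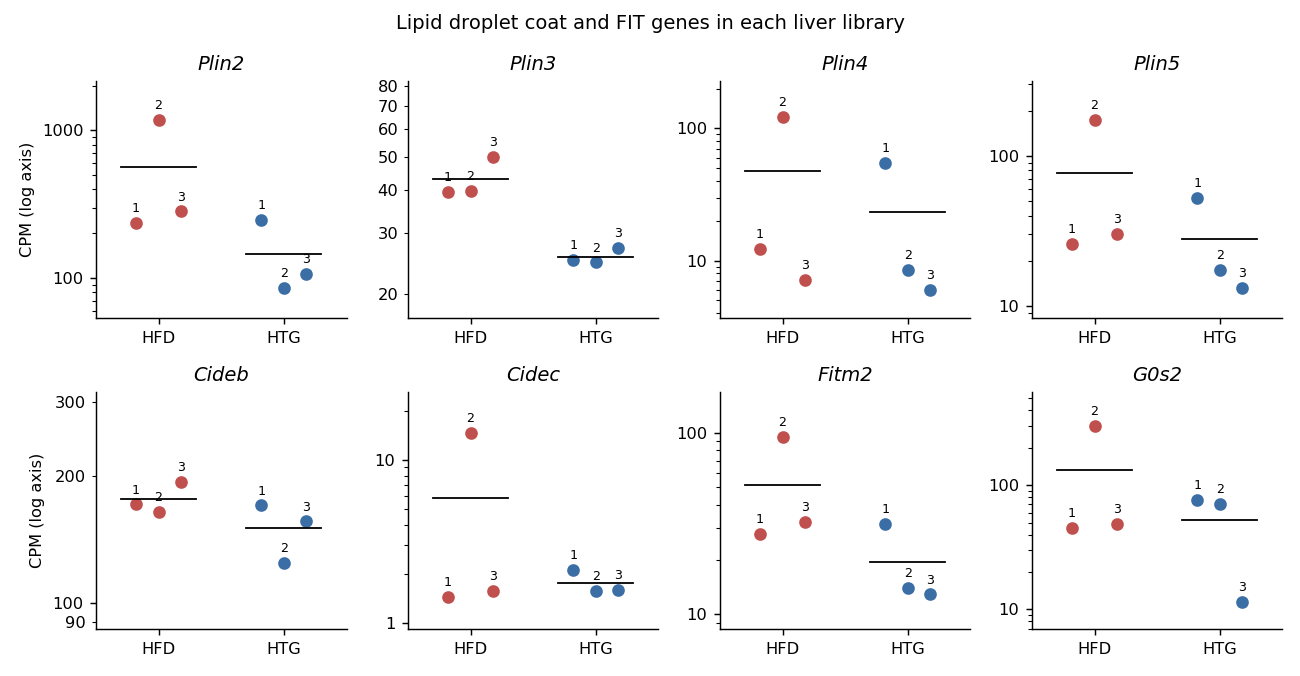
Each panel plots 1 gene: CPM on a log axis, 1 point per library with its number, HFD libraries in red, HTG libraries in blue, and a line at the mean of each group. HFD library 2 lies above all other libraries for Plin2, Plin4, Plin5, Cidec, Fitm2 and G0s2, and only for Plin3 do the 3 HTG libraries lie below all 3 HFD libraries.

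The sequences just before the start of Plin2 and Plin5, which peaked in HFD library 2, and of Plin3, which did not, are shown to set these patterns beside their promoters. They are the 250 bases upstream of the annotated start in RefSeq for rat, the labelled species, in build GRCr8, all on the minus strand and written from 5′ to 3′. Plin2 has 2 listed starts and Plin4 has 5, and the start farthest upstream was used, so the windows of their other starts were not searched. The counted rows are mouse genes, so these rat sequences stand for the orthologous genes. Capitals mark the motifs searched on both strands: the nuclear receptor word AGGTCA, the E-box CACGTG, the TATA box TATAAA and the CCAAT box CCAAT, which reads ATTGG on the other strand.
Plin2, chr5:106229019-106229268: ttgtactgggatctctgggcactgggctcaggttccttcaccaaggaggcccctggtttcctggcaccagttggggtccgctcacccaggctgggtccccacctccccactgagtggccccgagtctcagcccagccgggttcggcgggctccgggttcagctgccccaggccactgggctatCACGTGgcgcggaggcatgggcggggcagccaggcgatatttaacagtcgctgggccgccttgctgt
Plin5, chr9:1033285-1033534: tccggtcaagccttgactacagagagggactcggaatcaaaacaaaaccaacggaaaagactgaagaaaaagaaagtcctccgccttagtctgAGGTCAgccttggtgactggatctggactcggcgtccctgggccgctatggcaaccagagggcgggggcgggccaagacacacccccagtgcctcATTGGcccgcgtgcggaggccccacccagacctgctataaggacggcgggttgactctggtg
Plin3, chr9:1210213-1210462: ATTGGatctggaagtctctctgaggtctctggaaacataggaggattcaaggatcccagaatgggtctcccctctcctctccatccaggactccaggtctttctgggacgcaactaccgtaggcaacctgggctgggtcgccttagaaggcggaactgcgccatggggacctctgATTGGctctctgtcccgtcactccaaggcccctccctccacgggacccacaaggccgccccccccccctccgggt

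Plin2 held 1 E-box, 67 bases before the start, a word found in 5.59% of the 33469 rat windows of this length. Plin5 held 1 AGGTCA word, 157 bases before the start (14.1% of all windows hold one), and 1 CCAAT box at 62 bases. Plin3 held 2 CCAAT boxes, at 250 and 75 bases, a word found in 34.0% of all windows. Fitm2 had 1 CCAAT box at 230 bases, and the windows of Plin4, Cideb, Cidec and G0s2 held none of these words. The TATAAA word, in 12.9% of all windows, was in none of these 8 windows. Of the 6 genes that peaked in HFD library 2, Plin5 and Fitm2 thus both held a CCAAT box, as did Plin3, which did not peak there. A match of letters is a description and not a binding site, and sites outside the window were not searched. All 9 symbols matched an entry of the promoter table, and Cidea was not analysed here for sequence.

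Plin2, the perilipin of hepatocyte droplets (chromosome 4, 86566623 to 86588297 as the table lists it, with no build named), was the most abundant perilipin. It had 236, 1186 and 282 CPM in HFD libraries 1, 2 and 3, against 247, 85.0 and 106 CPM in HTG libraries 1, 2 and 3. HFD library 2 was 4.20 times the highest other library, HTG libraries 2 and 3 were the lowest, and HTG library 1 lay between HFD libraries 1 and 3, so that the groups overlapped. The log2 fold change of counts, HTG minus HFD, was -1.96 (SE 0.67, unadjusted p = 0.0188, adjusted p = 0.124 in edgeR's quasi-likelihood test). Without HFD library 2 it was -0.83 (SE 0.44, unadjusted p = 0.0989 in the same test). The direction was the same without that library and the change was smaller. With HTG library 1 left out instead, the log2 fold change was -2.61 (SE 0.74, unadjusted p = 0.00969 in the same test). Without HTG library 2 or 3 it was -1.68 and -1.75 (unadjusted p = 0.0645 and 0.0611 in the same test).

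Plin3, a perilipin that is soluble in the cytosol and moves onto newly formed droplets (chromosome 17, 56584476 to 56599873), behaved differently from the other perilipins. Its values were 39.4, 39.8 and 49.9 CPM in the HFD libraries, against 25.1, 24.7 and 27.2 CPM in the HTG libraries. The lowest HFD library was above the highest HTG library, and the HTG libraries lay close together, with means of 43.0 ± 5.95 and 25.7 ± 1.35 CPM (SD, n = 3 per group). Plin3 had a log2 fold change of -0.75 (SE 0.16, unadjusted p = 0.00165, adjusted p = 0.0606 in edgeR's quasi-likelihood test), and DESeq2 gave an adjusted p of 0.00329. Without HFD library 2 it was -0.80 (SE 0.18, unadjusted p = 0.00241, adjusted p = 0.128 in edgeR). When each of the 6 libraries was left out in turn, the log2 fold change of Plin3 ran from -0.81 to -0.63.

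Plin4, a perilipin best known from adipocytes and muscle (chromosome 17, 56407591 to 56416803), had 12.2, 123 and 7.09 CPM in the HFD libraries, against 55.0, 8.47 and 5.96 CPM in the HTG libraries. A single library of each group was high: HFD library 2 was 12.7 times the mean of the other 2 HFD libraries, and HTG library 1 was 7.62 times the mean of the other 2 HTG libraries. The other 4 libraries lay between 5.96 and 12.2 CPM, and the groups overlapped. Its fitted log2 fold change was -1.03 (SE 1.14, unadjusted p = 0.391, adjusted p = 0.611 in edgeR's quasi-likelihood test) and turned to 1.26 (SE 0.91, unadjusted p = 0.205) without HFD library 2. Without HTG library 1 it was -2.74 (unadjusted p = 0.0579), so the direction of Plin4 rested on which of the 2 high libraries was counted.

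Plin5, a perilipin of oxidative tissues that tethers droplets to mitochondria (chromosome 17, 56418601 to 56424596), showed the same 2 high libraries. It had 26.0, 173 and 30.3 CPM in the HFD libraries, against 52.8, 17.4 and 13.2 CPM in the HTG libraries. HFD library 2 was 3.28 times the highest other library, which was HTG library 1, and the groups overlapped. Its fitted log2 fold change was -1.46 (SE 0.79, unadjusted p = 0.102, adjusted p = 0.296 in edgeR's quasi-likelihood test). It was -0.02 (SE 0.54, unadjusted p = 0.973) without HFD library 2 and -2.35 (unadjusted p = 0.029) without HTG library 1. Plin4 and Plin5 lie side by side on one strand, 1797 bases apart, and Plin3 lies a further 159879 bases away. Plin4 and Plin5 had their 2 highest values in HFD library 2 and HTG library 1, and Plin3 did not. By CPM, G0s2 and Cidec, on chromosomes 1 and 6, also had their 2 highest values in these libraries, but HTG library 1 stood out less. It was 1.84 and 1.33 times the mean of HTG libraries 2 and 3 for G0s2 and Cidec, against 7.62 for Plin4 and 3.44 for Plin5. In FPKM, G0s2 was at 81.4 in HTG library 1 and 82.6 in HTG library 2. Whether the nearness of Plin4 and Plin5 plays a part was not tested.

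The CIDE genes differed widely in level. Cidea, known from brown fat and from strongly fat-laden liver (chromosome 18, 67476674 to 67500855), had 8 counts in HTG library 2 and 0 in every other library. The limit of 12 counts applies to the libraries at 0. Cidea was therefore at most a trace at this depth in either group, and no fold is given. Cideb, the liver CIDE gene with a role in VLDL lipid loading (chromosome 14, 55991507 to 55995915), was the steadiest of the 9 genes. It had 171, 164 and 194 CPM in the HFD libraries, against 170, 124 and 156 CPM in the HTG libraries. The groups overlapped, and HFD library 2 was the lowest of the HFD libraries. The log2 fold change was -0.23 (SE 0.19, adjusted p = 0.496 in edgeR's quasi-likelihood test), and -0.28 without HFD library 2.

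Cidec, also called FSP27, makes large droplets in fat cells and in steatotic liver (chromosome 6, 113401595 to 113412721). It had 98, 971 and 113 counts in the HFD libraries, against 164, 154 and 74 counts in the HTG libraries, which is 1.44, 14.6 and 1.57 CPM and then 2.11, 1.58 and 1.58 CPM. HFD library 2 was 6.92 times the highest other library, the widest such gap among the members, and the other 5 libraries lay between 1.44 and 2.11 CPM. With all libraries its log2 fold change was -1.74 (SE 0.84, unadjusted p = 0.0707, adjusted p = 0.244 in edgeR's quasi-likelihood test), and 0.22 (SE 0.36, unadjusted p = 0.569) without HFD library 2. DESeq2 gave no p for Cidec or Plin4 because of an outlying count. Without the 1 high library, the difference in Cidec was thus close to 0 and of the opposite sign.

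Fitm2, which binds triglyceride in the endoplasmic reticulum and is the widely expressed member of the FIT pair (chromosome 2, 163308299 to 163314549), had 27.6, 94.9 and 32.3 CPM in the HFD libraries, against 31.3, 14.0 and 12.9 CPM in the HTG libraries. HFD library 2 was 2.94 times the highest other library, HTG libraries 2 and 3 were the lowest, and HTG library 1 lay within the range of the HFD libraries. For Fitm2 the log2 fold change was -1.41 (SE 0.53, unadjusted p = 0.0267, adjusted p = 0.147 in edgeR's quasi-likelihood test), while DESeq2 gave an adjusted p of 0.0275. Without HFD library 2 it was -0.63 (SE 0.38, unadjusted p = 0.138 in edgeR). With HTG library 1 left out instead, it was -1.97 (SE 0.55, unadjusted p = 0.00857 in edgeR). Without HTG library 2 or 3 it was -1.22 and -1.17 (unadjusted p = 0.088 and 0.0848 in edgeR). Its paralog Fitm1, known from muscle, went the other way, with 7.44, 11.3 and 6.15 CPM in the HFD libraries, against 22.6, 13.2 and 11.4 CPM in the HTG libraries. The groups of Fitm1 did not overlap, HTG library 1 was the highest, and HTG library 3 lay just above HFD library 2. The log2 fold change of Fitm1 was 0.93 (SE 0.32, unadjusted p = 0.0198, adjusted p = 0.128 in edgeR's quasi-likelihood test), 1.21 without HFD library 2, and 0.53 (unadjusted p = 0.11) without HTG library 1.

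G0s2, the inhibitor of ATGL (chromosome 1, 192954469 to 192955525), had 45.4, 301 and 48.7 CPM in the HFD libraries, against 76.0, 71.2 and 11.5 CPM in the HTG libraries. HFD library 2 was the highest and HTG library 3 the lowest, and HTG libraries 1 and 2 lay above HFD libraries 1 and 3. Over all libraries G0s2 had a log2 fold change of -1.31 (SE 0.86, unadjusted p = 0.165, adjusted p = 0.384 in edgeR's quasi-likelihood test), and 0.17 (SE 0.66, unadjusted p = 0.806) without HFD library 2. The sign thus depended on that library.

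**Figure D2:**
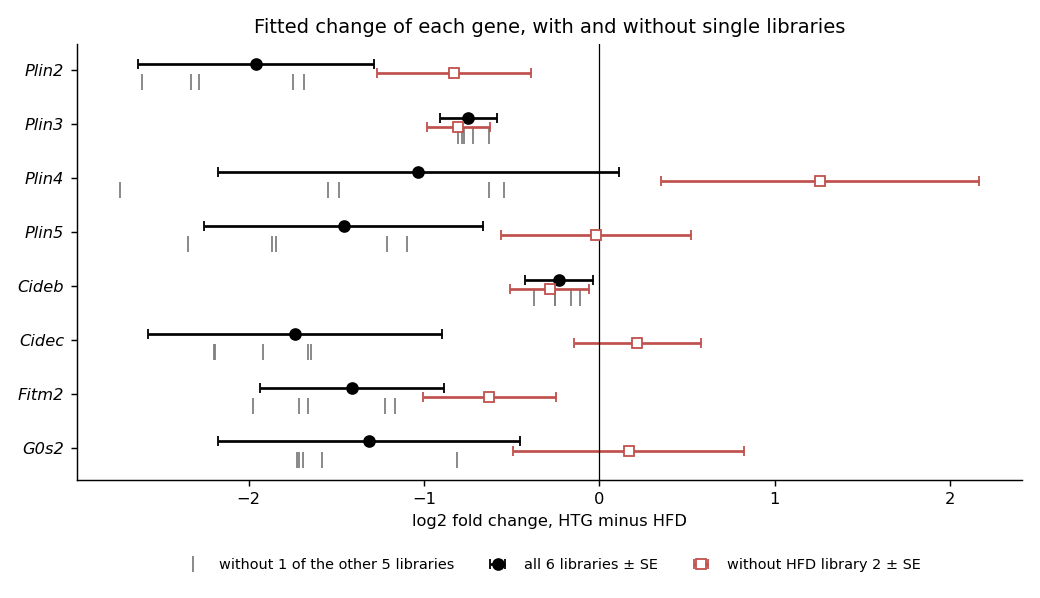
The x axis gives the fitted log2 fold change of counts, HTG minus HFD, for the 8 members tested: black circles with bars for all 6 libraries ± SE, open red squares for the fit without HFD library 2 ± SE, and grey ticks for fits without 1 of the other 5 libraries. Plin3 and Cideb barely moved, from -0.75 to -0.80 and from -0.23 to -0.28, while Plin4 went from -1.03 to 1.26, and Cidec and G0s2 also crossed 0.

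The spread over the 6 libraries set the members tested, other than Plin3 and Cideb, apart from most genes in this table. For those members the highest value was the one in HFD library 2 described above. The highest CPM was 26.2 times the lowest for G0s2, 20.6 times for Plin4, 13.9 times for Plin2, 13.1 times for Plin5, 10.1 times for Cidec and 7.39 times for Fitm2, against 2.02 times for Plin3 and 1.56 times for Cideb. Among the 10010 genes with a mean of at least 5 CPM, the median ratio was 1.85. A larger ratio was found in 0.529% of these genes for G0s2 and in 2.43% for Fitm2, against 40.2% for Plin3 and 73.2% for Cideb. For some members the spread was wide within the HTG group as well. HTG library 1 was 7.62 times the mean of HTG libraries 2 and 3 for Plin4, 3.44 times for Plin5, 2.59 times for Plin2 and 2.33 times for Fitm2. The same ratio was 1.84 for G0s2 and 1.33 for Cidec, whose HTG libraries lay between 1.58 and 2.11 CPM.

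Levels can be compared between genes as FPKM. In the HTG group the mean level was 94.1 ± 11.5 FPKM for Cideb, 58.5 ± 40.8 for G0s2, 38.8 ± 23.3 for Plin2, 12.5 ± 9.70 for Plin5, 6.34 ± 0.22 for Plin3, 4.58 ± 2.43 for Fitm2, 3.41 ± 4.05 for Plin4 and 0.88 ± 0.16 for Cidec (SD, n = 3). In this order, the libraries of Cideb and G0s2 and those of Plin2 and Plin5 did not overlap, while all other neighbours did. In the HFD group the order of the means was Plin2 (151 ± 134 FPKM), G0s2 (140 ± 149), Cideb (115 ± 14.7), Plin5 (34.0 ± 35.5), Fitm2 (12.2 ± 8.15), Plin3 (11.0 ± 1.86), Plin4 (6.84 ± 9.22) and Cidec (2.89 ± 3.63; SD, n = 3). Only Cideb and Plin5 were neighbours without overlap there. Summed over the 9 genes, the level was 268, 848 and 302 FPKM in HFD libraries 1, 2 and 3, against 300.1, 212 and 145 FPKM in HTG libraries 1, 2 and 3. Plin2, Cideb and G0s2 made up 84.6% to 90.2% of this sum in every library. The share of Cideb was 43.1%, 11.8% and 42.8% in the HFD libraries, against 35.6%, 39.7% and 62.9% in the HTG libraries, lowest in HFD library 2 and highest in HTG library 3. The 4 perilipins took 34.5%, 48.0% and 35.9% of the sum in the HFD libraries, against 34.5%, 19.2% and 26.8% in the HTG libraries.

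**Figure D3:**
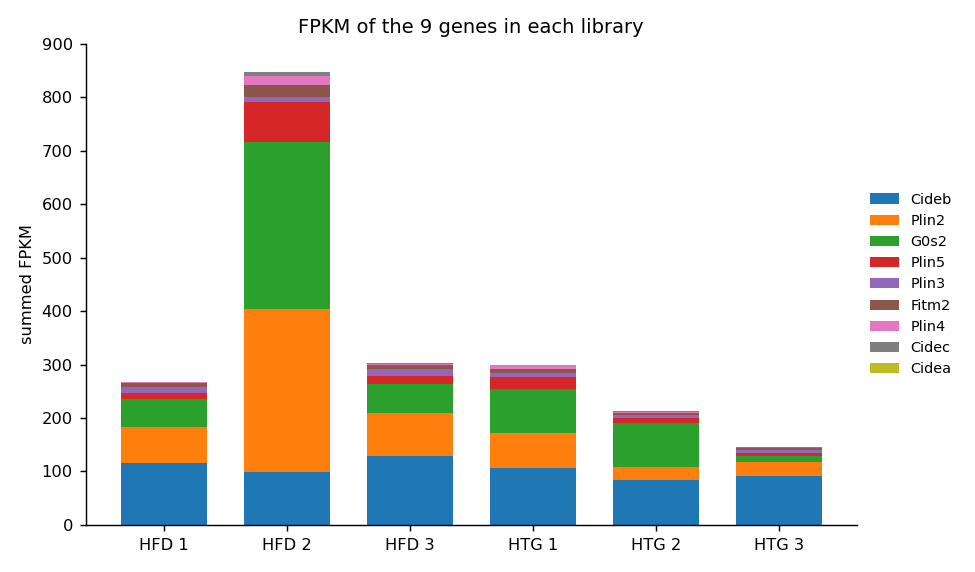
Stacked bars give the FPKM of the 9 genes in each library, summed on the y axis. HFD library 2 reaches 848 FPKM through Plin2, G0s2 and Plin5, while the Cideb segment stays between 84.4 and 129 FPKM in all 6 libraries.

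Ratios of 2 genes within a library do not depend on scaling between libraries. The log2 ratio of Plin2 to Plin5, in FPKM, was 2.43, 2.03 and 2.47 in HFD libraries 1, 2 and 3, against 1.48, 1.54 and 2.25 in HTG libraries 1, 2 and 3, a difference of -0.55 (exact two-sided permutation test, p = 0.2, the adjusted p over 5 ratios being 0.75) and of -0.70 without HFD library 2. HFD library 2 was the lowest of the HFD libraries by this ratio, and HTG library 3 lay within the HFD range. The log2 ratio of Fitm2 to Bscl2, which encodes seipin, a protein of the sites where droplets form, was 0.01, 2.09 and 0.02 in the HFD libraries, against 0.28, -0.64 and -0.98 in the HTG libraries (difference -1.15, exact permutation p = 0.3, adjusted p = 0.75, and -0.46 without HFD library 2). HTG libraries 2 and 3 were below all HFD libraries by this ratio, and HTG library 1 was not. The log2 ratio of G0s2 to Pnpla2, inhibitor to lipase, was 0.71, 2.77 and 1.52 in the HFD libraries, against 1.92, 2.33 and -0.17 in the HTG libraries (difference -0.31, exact permutation p = 0.7, adjusted p = 0.875, and 0.24 without HFD library 2). The ratios of Plin2 to Plin3 and of Cideb to Cidec differed by -0.98 (exact permutation p = 0.5, adjusted p = 0.833) and 0.64 (exact permutation p = 1.0, adjusted p = 1.0). These differences were -0.19 and -0.50 without HFD library 2. The groups overlapped in all 5 ratios, and the smallest p that 3 libraries against 3 allow is 0.1, so no ratio could pass 0.05.

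**Figure D4:**
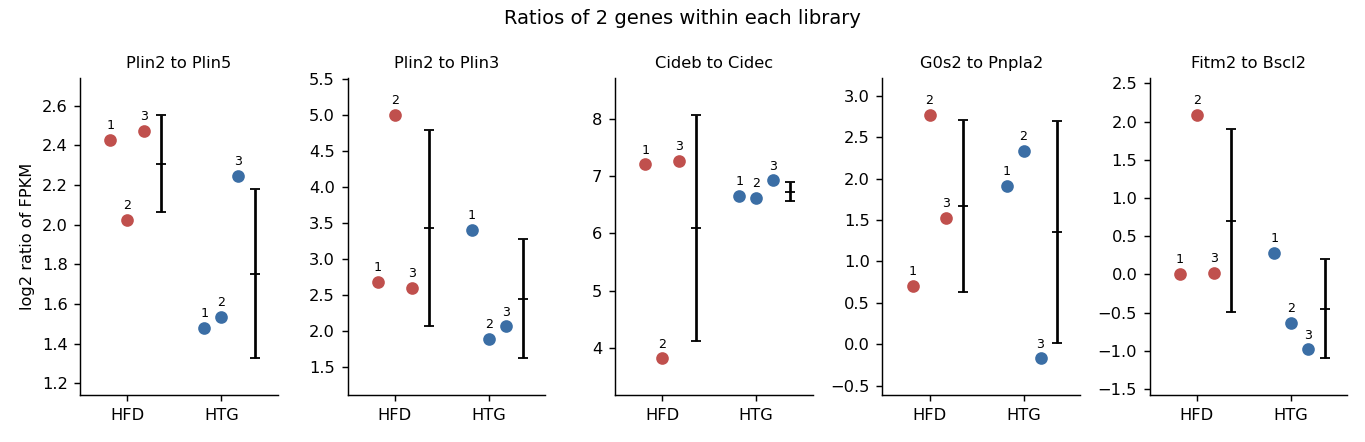
Each panel plots the log2 ratio of 2 genes' FPKM within each library, 1 numbered point per library (HFD red, HTG blue), with the mean ± SD of each group in black beside the points. HFD library 2 is the highest point in 3 panels, the lowest for Cideb to Cidec, and within the range of the others for Plin2 to Plin5, at 2.03.

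The genes whose profile over the 6 libraries was most like that of each member were found by the root mean square difference of centred log2 CPM, among 10009 other genes with a mean of at least 5 CPM (10010 for Cidec). For Plin5 it was Crat, at 0.133, with 24.6, 172 and 31.8 CPM in the HFD libraries, against 64.9, 19.9 and 12.9 CPM in the HTG libraries. For Plin2 it was Tuba8, at 0.203, followed by the member Fitm2 at 0.306. For Fitm2 it was Hsdl2, at 0.225, for G0s2 Retsat, at 0.377, for Cidec Lepr, at 0.394, and for Plin4 Acot2, at 0.548. As the choice by likeness over these same 6 libraries implies, these nearest genes had their highest value in HFD library 2. Retsat had 673 CPM there and 37.1 to 254 CPM elsewhere. Slc25a12 was nearest to Plin3, at 0.0556, and Tapbp to Cideb, at 0.0233. The nearest member was at rank 1617 for Plin3 and at rank 3477 for Cideb, and within the first 15 genes for each of the other 6 members.

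Other genes of droplet biology were taken from a list of 44 genes, of which Ldaf1 and Spart were not listed in the table and 41 were tested. At an unadjusted p under 0.05 in edgeR's quasi-likelihood test, 15 of the 41 were lower and 2 were higher in the HTG group, against 12.4% and 12.3% of all genes tested, and 0 had an adjusted p under 0.05. Groups without overlap were found for 13 lower and 2 higher genes, against 15.5% and 16.5% of all genes tested. Their median log2 fold change was -0.38. Without HFD library 2 it was -0.23, with 7 genes lower and 2 higher, against 9.72% and 10.6% of all genes in that fit. Counts by role use the same thresholds and are read against the same shares of all genes. In 2 of the 41 genes, Gpat4 and Hsd17b11, HFD library 2 was at least 2 times the highest other library. Such a peak was seen in 0.824% of all genes tested. The share among these 41 genes was smaller than among the 8 members, a difference that was not tested.

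Among the genes of droplet formation, 3 of 7 were lower and 1, Fitm1, was higher, against 2 lower and 1 higher without HFD library 2. Pcyt1a, the rate-limiting enzyme of phosphatidylcholine synthesis, which binds growing droplets, had 68.3, 80.7 and 78.7 CPM in the HFD libraries, against 47.2, 28.5 and 35.4 CPM in the HTG libraries, without overlap. Its log2 fold change was -1.03 (SE 0.22, adjusted p = 0.0585 in edgeR's quasi-likelihood test), and -0.99 without HFD library 2. Dgat2, which makes triglyceride at the droplet, was lower by the same measure (-0.88, adjusted p = 0.0894, and -0.99 without HFD library 2). Gpat4, which also moves onto droplets, had 116, 330 and 114 CPM in the HFD libraries, against 111, 76.4 and 58.3 CPM in the HTG libraries, and its log2 fold change of -1.19 was -0.49 without HFD library 2. Bscl2 had a log2 fold change of -0.16 (adjusted p = 0.616 in edgeR), and of -0.29 without HFD library 2. Plin1, the perilipin of fat cells, had 0 counts in the HFD libraries, against 12, 7 and 4 counts in the HTG libraries, none of them above 12 counts.

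Of the 8 lipolysis genes, 4 were lower and 0 higher, against 12.4% and 12.3% of all genes tested. Among these 8, Lipa alone was lower without HFD library 2. Lipa, the lysosomal acid lipase, had 115, 176 and 174 CPM in the HFD libraries, against 81.6, 41.2 and 36.2 CPM in the HTG libraries, with a log2 fold change of -1.54 (SE 0.34, adjusted p = 0.0606 in edgeR's quasi-likelihood test) and of -1.45 without HFD library 2. All 3 HTG libraries of Lipa were below all 3 HFD libraries. Abhd5, the activator of ATGL, had a log2 fold change of -0.43 (-0.40, unadjusted p = 0.0528, without HFD library 2). Hilpda, an inhibitor of ATGL, had one of -0.73 (-0.45, unadjusted p = 0.197, without HFD library 2). Pnpla2, which encodes ATGL itself, had 96.4, 153 and 58.8 CPM in the HFD libraries, against 69.8, 49.0 and 44.8 CPM in the HTG libraries, which overlap, and its log2 fold change of -0.91 (unadjusted p = 0.0276 in edgeR) was -0.51 (unadjusted p = 0.117) without HFD library 2. The 4 lower genes thus included lipases, an activator and an inhibitor.

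Of the 9 enzymes of the droplet surface, 1 was lower, Hsd17b13, a liver droplet protein, with a log2 fold change of -0.96 (unadjusted p = 0.018) that was -0.55 (unadjusted p = 0.0648) without HFD library 2, where 0 of the 9 were lower. Of the 9 genes of contacts and traffic, 4 were lower: Vps13c, a lipid transfer protein (-0.97), Osbpl2, a sterol-binding protein (-0.50), and the small GTPases Rab8a (-0.50) and Rab7 (-0.51). Of these, 3 were lower without HFD library 2 (Vps13c, Osbpl2 at -0.48 and Rab8a at -0.54), and Rab7 was at -0.37 (unadjusted p = 0.114). Among 8 regulators of coat genes, 3 were lower and 1 was higher, against 12.4% and 12.3% of all genes tested, and without HFD library 2 the counts were 1 and 1. Rxra, the partner receptor of the PPARs, was lower without overlap (-0.73, adjusted p = 0.0785 in edgeR's quasi-likelihood test, and -0.67 without HFD library 2). Ppara and Pparg, named after their values were seen, had log2 fold changes of -0.80 and -1.04 with overlapping groups. In the fit without HFD library 2 they were -0.80 (unadjusted p = 0.0669) and -0.81 (unadjusted p = 0.0686). Ppara had 20.4, 35.3 and 50.6 CPM in HFD libraries 1, 2 and 3, so HFD library 2 was not its highest. Mlxipl, which encodes the carbohydrate sensor ChREBP, was higher, with 325, 287 and 461 CPM in the HFD libraries, against 604, 1075 and 939 CPM in the HTG libraries (log2 fold change 1.29, SE 0.29, adjusted p = 0.0613 in edgeR, and 1.15 without HFD library 2).

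**Figure D5:**
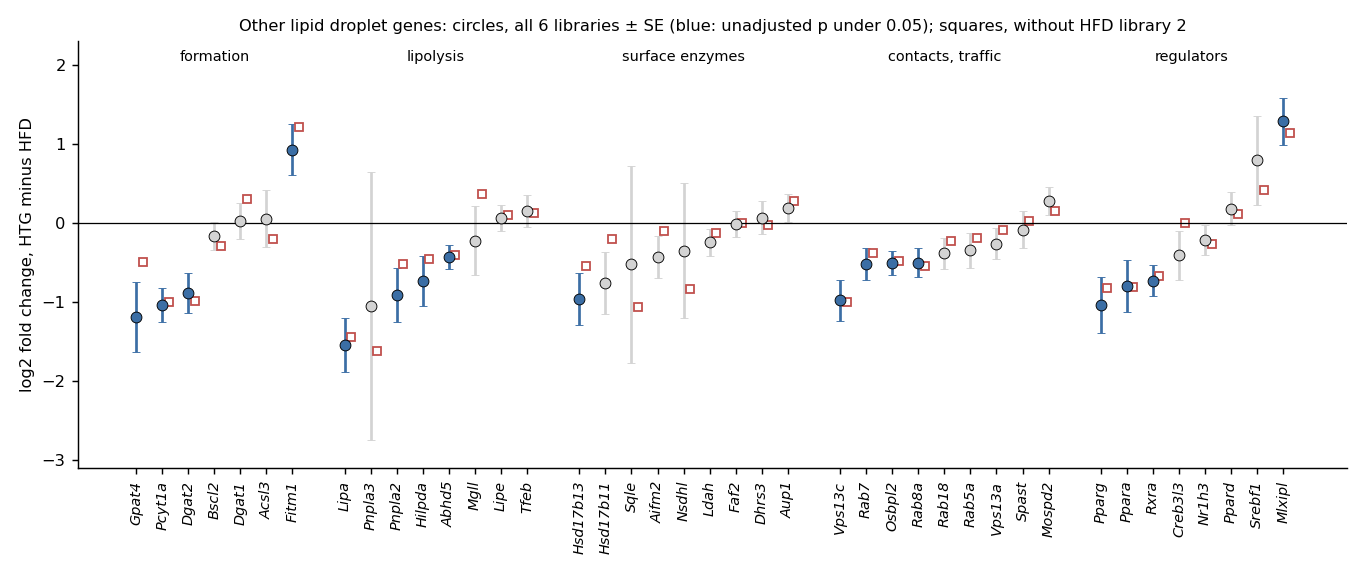
Circles give the log2 fold change of counts, HTG minus HFD, ± SE for 41 other droplet genes by role, blue at an unadjusted p under 0.05, and open squares give the fit without HFD library 2. Most circles lie below 0 (median -0.38), with Fitm1 at 0.93 and Mlxipl at 1.29 as the blue circles above it.

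The table itself annotates 106 genes to the lipid droplet by GO. Some, such as Abhd5, Dgat2 and Pnpla2, are also in the droplet list above, so the lists are not independent. Of the 106 genes, 93 were tested. Of these, 32 were lower and 1, Chka, was higher in HTG livers at an unadjusted p under 0.05, against 12.4% and 12.3% of all genes tested, and the median log2 fold change was -0.41. Without HFD library 2, 22 were lower and 0 higher, against 9.72% and 10.6% of all genes in that fit, with a median of -0.33. With the members left out, 88 of these genes remained, 30 lower and 1 higher, and 21 lower and 0 higher without HFD library 2. The KEGG PPAR signaling pathway in the table held 69 tested genes other than the members, with 14 lower and 5 higher, against 12.4% and 12.3% of all genes tested, and a median log2 fold change of -0.40. In the fit without HFD library 2, 12 were lower and 7 higher, against 9.72% and 10.6%, and the median was -0.16. In 5 of the 69, Acsl1, Angptl4, Cyp4a14, Cyp4a31 and Ehhadh, HFD library 2 was at least 2 times the highest other library, as it was in the members Plin2, Plin4 and Plin5, which the pathway also holds, against 0.824% of all genes tested. The peak in HFD library 2 was therefore not limited to the droplet coat genes. Ppara, Pparg and Rxra, among the lower genes of the PPAR pathway, were also in the droplet list above, so these lists overlap too.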

How the data were processed

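For each gene and library the authors deposited 2 values: a whole-number estimated count without scaling between libraries, and FPKM. The submitters' processing notes name HISAT2, StringTie, SAMtools and the rat build mRatBN7.2, although the gene rows are mouse Ensembl genes. Use of strand in counting is not given in the sources used here, so counts of overlapping or near-identical genes are uncertain. Over the 6 libraries, 6450 counts were 4, against 2549 of 3 and 1757 of 5. Groups came from the labels, 1 animal per library, and 0 columns lacked a sample.

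Estimated counts were fitted with edgeR 4.0.16 (quasi-likelihood test, TMM scaling, default expression filter, group as the only term) in R 4.3.3, with Benjamini-Hochberg adjustment over the genes tested. Alternatives were DESeq2 1.42.0, limma 3.58.1 on log2(FPKM + 0.1 or 1) with a mean FPKM of at least 1, other scalings and filters, the replicate block, counts divided by 4, and each library left out. The count of members past an adjusted p was added after seeing the data. Ratios used FPKM + 0.01 and an exact permutation test.

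Genes were named by rule: all members, at most 15 listed droplet genes with an unadjusted p under 0.05 and no overlap, the nearest profile of each member, and the ratio partners. Members and lists were chosen with earlier results of these data known. The other assays of the study were not analysed here.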

Additional observations from a re-analysis of the deposited data

How the results depend on the processing

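Of the 8 members tested, 3 were lower in the HTG group at an unadjusted p under 0.05 with all libraries, 2 (Plin3 and Fitm2) with the replicate number as a block (replicate block), and 1 to 5 when 1 library was left out: 1 when that was HFD library 2 or either of HTG libraries 2 and 3, and 5 for HFD library 1. The same fits gave 7 to 14 lower genes of the droplet list (7 without HFD library 2 or HTG library 2, 9 without HTG library 3) and 1 to 3 higher ones (1 without HTG library 1). They gave 18 to 34 lower genes annotated to the lipid droplet (18 without HTG library 2, 20 without HTG library 3) and 0 to 2 higher ones. The higher count was 2 with no filter, and 0 with the replicate block or limma on log2(FPKM + 0.1) or log2(FPKM + 1). Of all genes, 12.4% were lower and 12.3% higher with all libraries, against 9.72% and 10.6% without HFD library 2. Shares over all genes in the other fits are not given here, so the counts from those fits cannot be set against all genes. Same-numbered libraries deviated with correlations of -0.196, -0.123 and 0.244, and differently numbered ones with -0.254 to 0.37. With 3 libraries per group, these values cannot decide whether the numbers pair the animals.

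The log2 fold change ran from -2.74 to 1.26 for Plin4, from -2.20 to 0.22 for Cidec and from -1.72 to 0.17 for G0s2 over the fits that left out 1 library, each reversing only without HFD library 2. The ratio of Cideb to Cidec ran from -0.50 (without HFD library 2) to 1.22, and that of G0s2 to Pnpla2 from -0.79 to 0.46, reversing without HFD library 2 (0.24) and without HTG library 3 (0.46). At an adjusted p under 0.05, edgeR called 0 members and 0.0108% of all genes tested, and DESeq2 called 2 members and 13.0%. Fits by edgeR with at least 10 counts in every library, edgeR on counts divided by 4, and limma on either FPKM scale called 1 each. For these last fits the share of all genes called is not given here, so their counts cannot be set against all genes. The 14 named droplet genes were chosen for an unadjusted p under 0.05 and groups without overlap in these same libraries. Their direction was therefore nearly fixed in advance, and it was kept in all alternatives. In 29 of 210 fits an unadjusted p was no longer under 0.05. The cause of these changes was not tested. The SE of the log2 fold change was 0.53 to 1.14 for the 6 members that were highest in HFD library 2, and 0.16 and 0.19 for Plin3 and Cideb. This SE includes the spread between the libraries of a group, so the group difference was less certain for those 6 members.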
